A study of Mus musculus with 6 samples.

Results

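The actin, tropomyosin and smooth muscle genes of the embryonic heart were compared between Dicer mutant and control hearts. The 10 genes were listed by name and function, with no cut on their values, but earlier results of these data were known. Listed were the muscle actins Acta1, Acta2, Actc1 and Actg2, the tropomyosins Tpm1, Tpm2 and Tpm4, and the smooth muscle markers Cnn1, Tagln and Myh11. They are 10 of the 18209 genes that the platform annotation lists, and 11 probes stand for them. Acta2 has 2 probes, and Tagln shares its only probe with Pcsk7, so no value below belongs to Tagln alone. RNA came from dissected hearts of mouse embryos at embryonic day 11.5 and was hybridised to 6 single-colour CodeLink arrays, 3 per group. In the mutant hearts Dicer was deleted through Cre expressed from Nkx2.5, a cardiac transcription factor gene active in heart progenitors. The labels give neither the Dicer alleles nor the controls' genotype, nor whether controls carried the Cre. Neither is it stated whether arrays of a group held separate embryos, pools or litters, so the p-values below reflect the spread among these arrays alone, and that spread may be technical.

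Dicer cuts miRNA precursors into mature miRNAs, and several miRNAs of heart and smooth muscle act on the genes that build and regulate the contractile apparatus. Actin polymerises into the thin filament, and tropomyosin lies along it and, with troponin, controls where myosin may bind. The embryonic heart is known for using actin and tropomyosin forms that the adult restricts to other muscles: smooth muscle and skeletal alpha-actin are expressed in early cardiomyocytes beside cardiac alpha-actin. Calponin, transgelin and smooth muscle myosin mark smooth muscle, although early cardiomyocytes transiently express calponin and transgelin too. Many of these genes are controlled by serum response factor (SRF), which binds a DNA element called the CArG box, and by its partners of the myocardin family.

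The promoters of the group were searched for CArG boxes. The genes were chosen by name and function, and many are known for control by SRF. The shares below therefore describe the promoters and are not an independent test. A CArG box has CC at one end, GG at the other and 6 bases between them that are each A or T. It reads as the same motif on both strands. RefSeq promoter windows of build GRCm38.p6 were found for 7 of the 10 genes, one each, and the 250 bases before each start were searched. A box was present in Acta1 and Actc1, against 1.47% of all 32851 windows. Allowing 1 G or C among the middle bases added Acta2, against 8.59% of all windows. No such letters were found in the windows of Tpm1, Tpm2, Tpm4 and Cnn1. Actg2, Tagln and Myh11 were not matched. Windows of 30 bases around some of the boxes of the 3 actins follow, with the box in capitals, 5′ to 3′ on the gene's strand. Not printed are further boxes with 1 G or C in the middle. Those start 205 and 154 bases before the start of Acta1, 34 before that of Acta2, and 138 and 87 before that of Actc1. The printed windows are shown because these 3 genes had a match. The search covered only 250 bases before 1 start per gene. It cannot tell whether the other genes of the group have a box elsewhere.
Acta1 (chr8:123894829-123894858, minus strand, box starting 73 bases before the start): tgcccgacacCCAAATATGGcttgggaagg
Actc1 (chr2:114052903-114052932, minus strand, box starting 47 bases before the start): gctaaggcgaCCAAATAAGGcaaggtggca
Acta2 (chr19:34255438-34255467, minus strand, box starting 84 bases before the start, with 1 C in its middle): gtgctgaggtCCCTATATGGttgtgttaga
Actc1 (chr2:114053031-114053060, minus strand, box starting 175 bases before the start, with 1 C in its middle): ctccctagctCCCTATATGGccattgctct
The capitals of the last pair are identical: Acta2 and Actc1 share those 10 bases. A match describes these letters only and is not a measured binding site.

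The array files give for each spot a mean intensity and the median of its local background. After background correction the spots were quantile-normalized as log2 values, so every level below is a log2 signal and every difference is mutant minus control. A level compares arrays within a probe and not one gene with another. On each array 74.1% to 78.2% of the 36227 spots were above background, and 184 to 263 were saturated. Dicer1 read 6.74, 6.73 and 6.68 in mutants against 7.82, 7.63 and 7.71 in controls, and it passed the test (limma adjusted p = 0.036). Its mutant signal was 0.498 of the control level. Whether its probe lies in the deleted part, and how many cells of the heart kept Dicer, is not known here. Control 3 resembled mutants 1 and 2 more than its own group on the first principal component of all probes: it lay at -20.8, beside -18.3 and -30.1, with mutant 3 at 5.63 and controls 1 and 2 at 37.3 and 26.3. Where leaving out mutant 3 or control 3 changed a call or a sign of the genes below, the saturated Actc1 aside, the value without it is given.

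All 11 probes were above background on all 6 arrays. Their signals ranged widely, from Myh11, with background-subtracted intensities of 109.7 to 314 scanner units, to Actc1, at 33478 to 36540. Actc1 was the only one of them with a spot not flagged good, and its spot was saturated on every array.

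**Figure D1:**
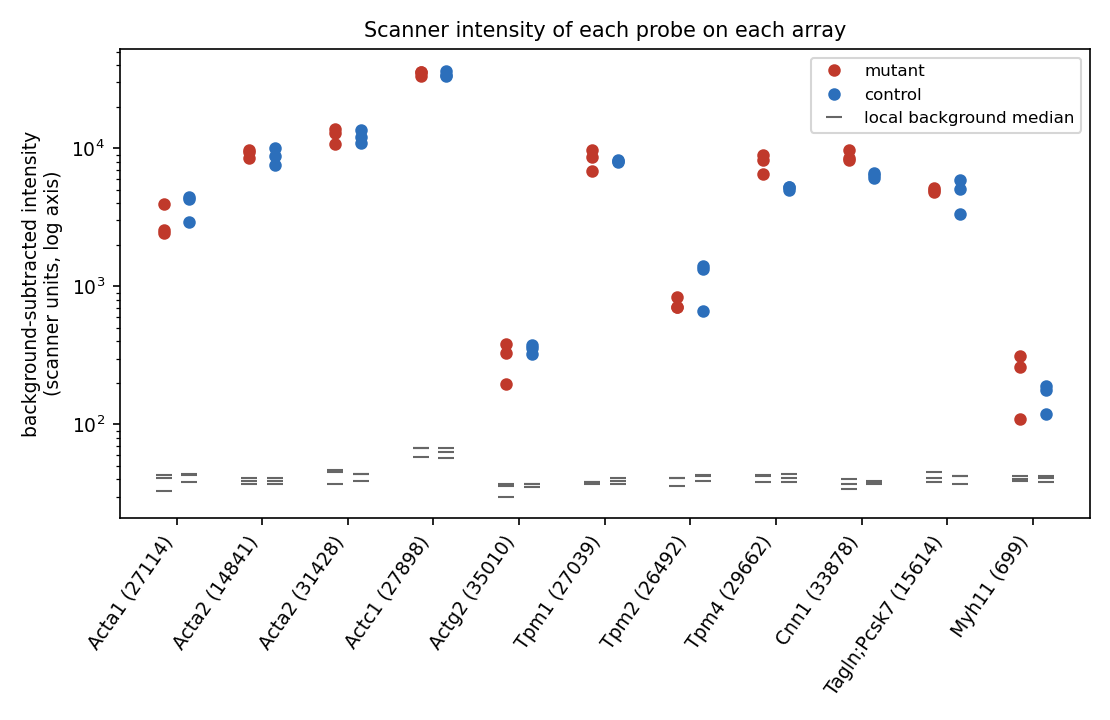
Background-subtracted intensity of each probe (number in parentheses) on each array, on a log axis in scanner units, with mutants in red, controls in blue and the local background median as grey dashes. Actc1 sits at the top, saturated on all 6 arrays, while Myh11 and Actg2 lie nearest their background.

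Among the actins no probe separated the groups, although the saturated Actc1 gave no usable comparison. Actc1 encodes cardiac alpha-actin, the main actin of the working myocardium. Its subtracted intensities were 35740, 33478 and 35703 units in mutants and 34104, 36540 and 33624 in the controls. Since the spot was saturated throughout, these values bound the signal from below on both sides and no fold change is given here. Differences of Actc1 under other settings, listed at the end, and counts that include it carry the same limit.

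Acta1 encodes skeletal alpha-actin, which is co-expressed with Actc1 in the embryonic heart. Its log2 signal was 11.20, 11.25 and 12.11 in mutant hearts and 12.11, 12.04 and 11.58 in the controls. Mutants 1 and 2 were low, whereas mutant 3 stood level with controls 1 and 2, so the groups overlapped. The difference was -0.39 ± 0.28 (log2, SE), or 0.761 of the control level with a 95% interval of 0.482 to 1.20 (limma adjusted p = 0.646). Without mutant 3 and control 3 the difference grew to -0.85 and passed the test (limma adjusted p = 0.00218), where 22.1% of all probes passed. Without mutant 3 alone it was -0.69 and did not pass. It shrank to -0.23 without mutant 1, to -0.26 without mutant 2, to -0.13 without mutant 1 and control 1, and to -0.19 without mutant 2 and control 2.

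Acta2 encodes smooth muscle alpha-actin, an early marker of differentiating cardiomyocytes as well as of smooth muscle. Its brighter probe (31428) read 13.35, 13.68 and 13.86 in mutants and 13.51, 13.47 and 13.60 in the controls. The other probe (14841) read 13.16, 13.00 and 13.43 against 13.13, 13.04 and 13.03. On both probes mutant 3 was the highest array, and the controls spread far less than the mutants (SD 0.07 against 0.26, and 0.06 against 0.22). The differences were 0.11 ± 0.14 and 0.13 ± 0.13 (log2, SE; limma adjusted p = 0.824 and 0.75), and the 95% intervals were 0.849 to 1.37 and 0.885 to 1.35 of the control level. Without mutant 3 they were -0.008 and 0.01. Both signs turned under cyclic loess scaling, to -0.04 and -0.003.

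Actg2 encodes the gamma-actin of enteric smooth muscle and gave a dim signal. It read 8.48, 8.70 and 8.10 in mutants and 8.59, 8.61 and 8.75 in the controls, with mutant 3 the lowest array and mutant 2 inside the control range. The difference was -0.22 ± 0.16 (log2, SE; limma adjusted p = 0.664). Without mutant 3 it shrank to -0.06. The coding sequences of the muscle actins are nearly identical, and the probe sequences were not used here, so how far each probe also binds the other actins is not known.

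Of the tropomyosins, Tpm4 showed the clearest difference of any gene in the group. Tpm4 encodes a tropomyosin of the cytoskeleton and of non-sarcomeric actin filaments. Its log2 signal was 12.92, 13.09 and 12.85 in mutants and 12.34, 12.37 and 12.37 in the controls. All mutants lay above all controls, with a gap of 0.48 between the nearest arrays. The same held for the authors' normalized intensity, at 98.6, 115 and 98.2 against 71.0, 66.1 and 66.1. The difference was 0.59 ± 0.10 (log2, SE), or 1.51-fold with a 95% interval of 1.29 to 1.77, and it did not pass over all probes (limma adjusted p = 0.138). It ranked 71 by p among 17727 probes. An exact two-sided permutation test gave p = 0.1, the smallest that 3 against 3 arrays allow.

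Tpm1 encodes alpha-tropomyosin, the predominant sarcomeric form in the mouse heart. It read 13.22, 13.03 and 12.92 in mutants and 12.91, 12.93 and 13.17 in the controls, so the groups covered nearly the same range. The difference was 0.05 ± 0.12 (log2, SE), with an interval of 0.844 to 1.27 of the control level (limma adjusted p = 0.908), and its sign turned under cyclic loess scaling, to -0.04.

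Tpm2 encodes beta-tropomyosin, a form of skeletal and smooth muscle that the fetal heart also makes. It read 9.69, 9.51 and 9.75 in mutants and 10.53, 10.40 and 9.50 in the controls. Controls 1 and 2 were high, and control 3 lay just below the lowest mutant. The difference was -0.49 ± 0.27 (log2, SE), or 0.711 of the control level with an interval of 0.456 to 1.11 (limma adjusted p = 0.577). With control 3 left out it was -0.81 and passed (limma adjusted p = 0.0452), as 1.81% of all probes did. Without mutant 3 and control 3 it was -0.86 (limma adjusted p = 0.00355), where 22.1% of all probes passed. It shrank to -0.30 without control 1, to -0.32 without mutant 1 and control 1, and to -0.30 without mutant 2 and control 2. Each tropomyosin gene makes several splice forms, and which of them these probes detect is not known here.

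The tropomyosin probes were also set against each other within each array, which compares changes and not amounts. The log2 ratio of Tpm4 to Tpm2 was 1.08 ± 0.36 (SE, n = 3 per group) higher in the mutants, and that of Tpm4 to Tpm1 was 0.54 ± 0.13 higher. Neither ratio overlapped between the groups, with an exact permutation p of 0.1 for each, or 0.15 adjusted over the 3 pairs. Of single probes 15.1% did not overlap, and no such share is given for ratios. The ratio of Tpm4 to Tpm1 largely repeats Tpm4, since Tpm1 differed by 0.05. For Tpm4 to Tpm2 the nearest arrays were control 3 at 0.11 and mutant 3 at 0.35, with controls 1 and 2 at -0.95 and -0.78. The ratio of Tpm2 to Tpm1 overlapped, at -0.54 ± 0.42 (exact permutation p = 0.4). The pairs were compared after the single values had been seen.

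Cnn1 led the smooth muscle markers. It encodes calponin, an actin-binding protein of smooth muscle that restrains myosin ATPase activity. Its log2 signal was 13.02, 13.20 and 13.20 in mutants and 12.53, 12.69 and 12.76 in the controls. All mutants lay above all controls, with a gap of 0.26. On the authors' normalized scale it read 103, 123 and 125 against 82.9, 82.6 and 84.5. The difference was 0.48 ± 0.11 (log2, SE), or 1.39-fold with an interval of 1.17 to 1.66, without passing over all probes (limma adjusted p = 0.212; exact permutation p = 0.1).

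Myh11 encodes smooth muscle myosin heavy chain, the most lineage-specific of the smooth muscle markers, and it was the dimmest of the probes. It read 8.42, 8.25 and 7.47 in mutants and 7.94, 7.76 and 7.43 in the controls. Mutants 1 and 2 were the highest arrays, but mutant 3 stood with control 3 at the bottom. The difference was 0.34 ± 0.27 (log2, SE), with an interval of 0.812 to 1.97 of the control level (limma adjusted p = 0.683). It ranged from 0.15 to 0.62 with 1 array left out, the highest of these without mutant 3.

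The probe listed with both Tagln, which encodes the actin-binding protein transgelin (SM22), and Pcsk7, a proprotein convertase gene, read 12.28, 12.18 and 12.46 in mutants and 12.49, 12.31 and 11.80 in the controls. Control 3 alone was low. The difference was 0.10 ± 0.19 (log2, SE; limma adjusted p = 0.872) and turned to -0.09 without control 3. A further probe of Pcsk7 alone gave 0.04 ± 0.15. It read 8.87, 8.75 and 8.42 in mutants and 8.50, 8.58 and 8.84 in the controls, so control 3 was not low on it. Which of the pair the shared probe measured was not tested.

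**Figure D2:**
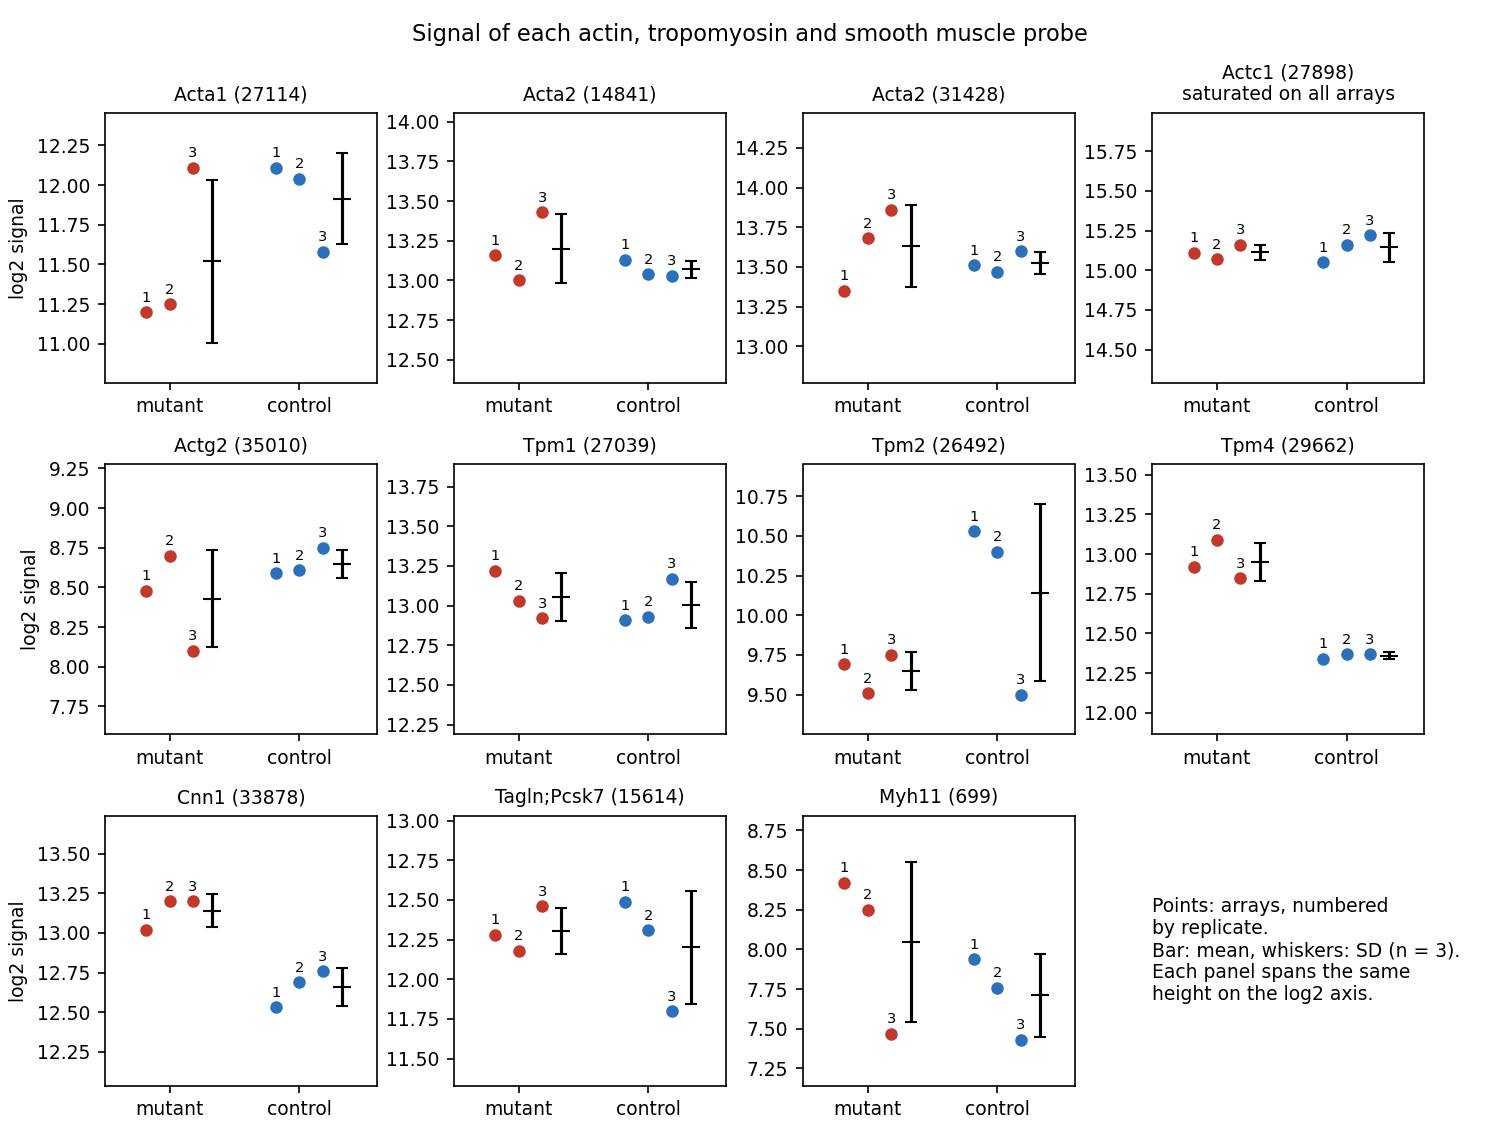
Log2 signal of each probe on each array, with points numbered by replicate, mutants in red, controls in blue, and a bar and whiskers for the mean and SD (n = 3). Tpm4 and Cnn1 are the panels in which all mutants lie above all controls, and in Acta1, Tpm2 and Myh11 mutant 3 or control 3 sits apart from its group.

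Across the whole group, 0 of 11 probes passed limma's test at an adjusted p under 0.05, where 0.0508% of all 17727 probes tested did. At an unadjusted p under 0.05 there were 2 of 11, Tpm4 and Cnn1, both higher, against a background of 10% of all probes, and 6.75% on the higher side. The same 2 were the probes whose groups did not overlap. Of all probes tested 15.1% did not overlap, and 9.87% did so on the higher side. Both counts of 2 are 18.2% of the 11 probes. The median difference of the 11 probes was 0.10, beside 0.02 over all probes tested, and 7 of 11 were above 0, beside 53.3% of all probes. The saturated Actc1 counts among the 11 and among those below 0. Without it the median was 0.11.

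**Figure D3:**
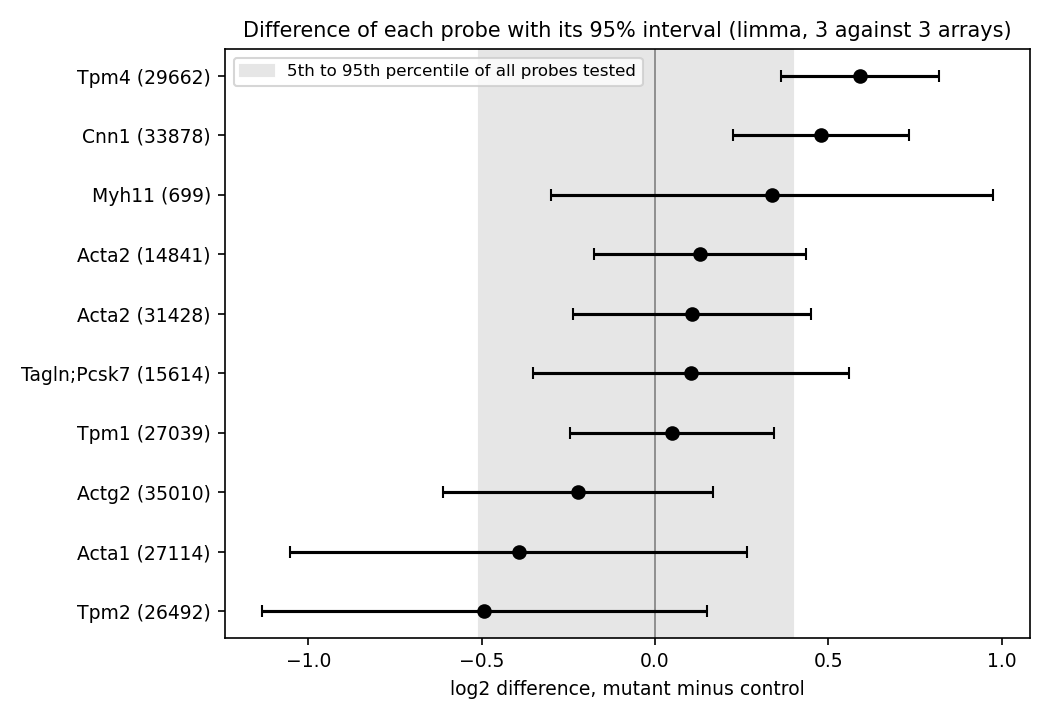
Log2 difference, mutant minus control, of each probe with its 95% interval from limma (3 against 3 arrays), with the saturated Actc1 left out. The grey band runs from the 5th to the 95th percentile of all probes tested, -0.51 to 0.40, and the points of Tpm4 and Cnn1 lie above it while their intervals stay clear of 0.

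The order of the arrays differed between the genes. Tpm4 and Cnn1 followed the groups, with controls at -0.37 to -0.14 and mutants at 0.12 to 0.43 around the mean of the 6 arrays. Acta1 and Tpm2 were high in control 1, at 0.40 and 0.63, and in control 2, at 0.33 and 0.50, which are the arrays at the upper end of the first principal component. Control 3 read -0.13 and -0.39. Mutant 3 matched control 1 on Acta1, at 0.40, but not on Tpm2, at -0.15. The erythroid marker list, which measures blood in the tissue, had its highest array medians in the same controls, at 0.42 and 0.23. It read -0.17 in control 3 and -0.18 to 0.03 in the mutants. Of its globin genes, Hba-a1 did not follow this order, at 13.46, 13.68 and 13.96 in controls 1, 2 and 3. Hbb-y, Hbb-bh1 and Hba-x were saturated on all 6 arrays and could not show it. The epicardial list also had controls 1 and 2 highest, at 0.14 and 0.12. It read -0.12 in control 3 and -0.08 to 0.02 in the mutants. In the cardiomyocyte list the order was reversed: controls 1 and 2 were lowest, at -0.32 and -0.14, and control 3 highest, at 0.33. Mutants lay between, at -0.07 to 0.15. The part of these lists in the values of Acta1 and Tpm2 was not tested. In whole hearts, fewer cells of a type and less RNA per cell cannot be told apart.

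**Figure D4:**
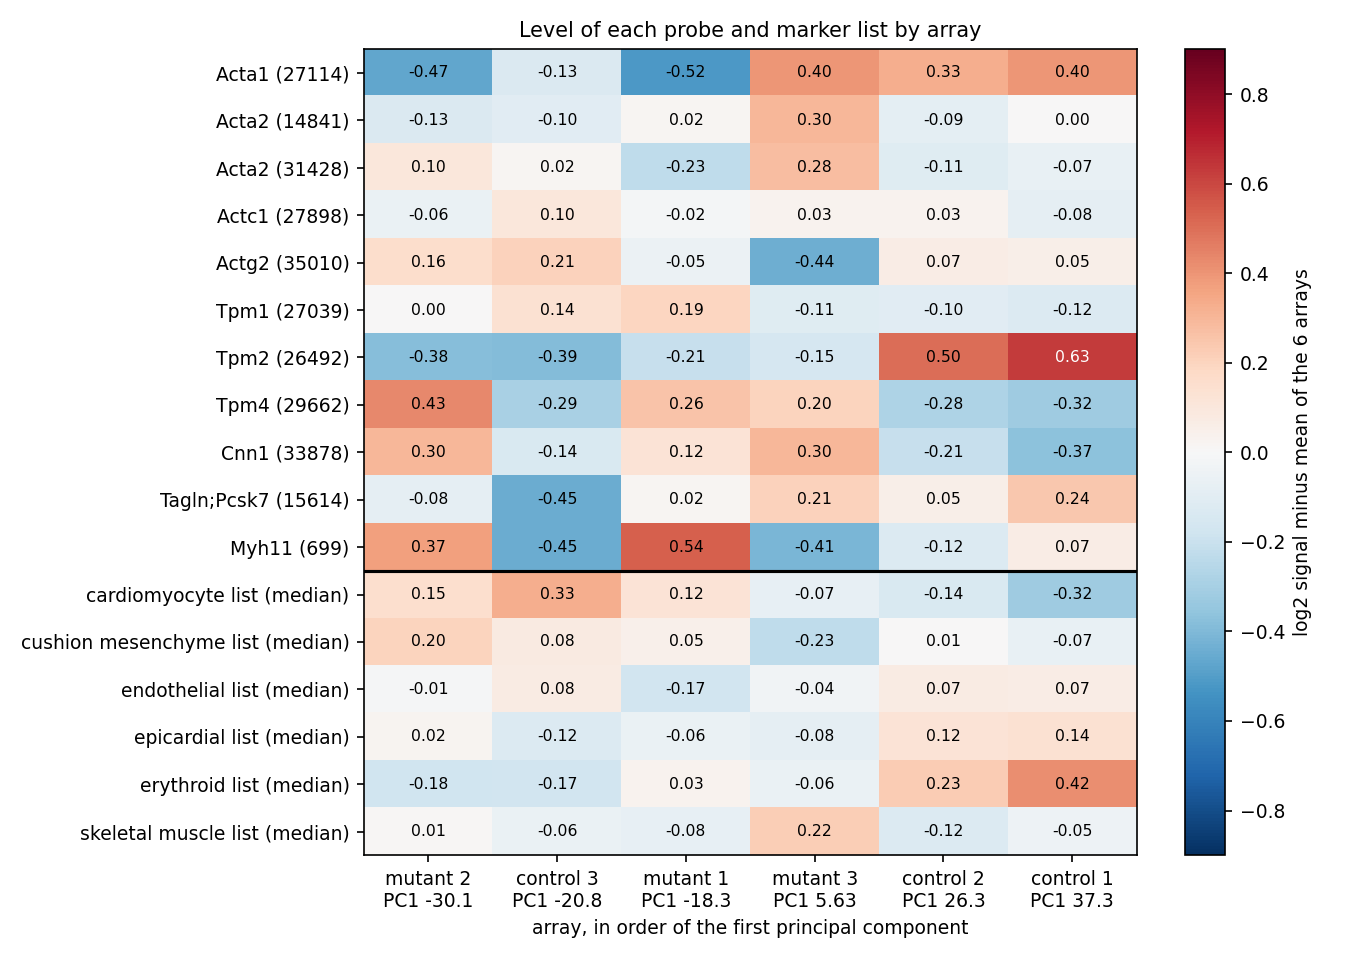
Log2 signal minus the mean of the 6 arrays for each probe (upper block) and the median of the same over each marker list (lower block), with arrays in order of the first principal component. Tpm4 and Cnn1 are positive in all mutants and negative in all controls, whereas Tpm2 and the erythroid and epicardial lists are highest in controls 1 and 2. The cardiomyocyte list is lowest in controls 1 and 2.

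How the calls depended on mutant 3 and control 3 was examined directly. These arrays were singled out by their place on the first principal component of the same data, so leaving them out favours separation of the groups. Without that pair, whose titles share a number, 5 of 11 probes passed limma's test: Tpm4 (0.65), Cnn1 (0.50) and Myh11 (0.48) higher, and Acta1 (-0.85) and Tpm2 (-0.86) lower. In the same fit 22.1% of all probes passed, and 7 of 11 did not overlap between groups, where 63.8% of all probes did not. Leaving out the mutant and control of replicate 1, or those of replicate 2, let 0 of all probes pass. Without control 3 alone, 1 of 11 passed, Tpm2, in a background of 1.81%. With the T-number code in the array titles as a block, which rests on mutants 1 and 2 against control 1, Acta1 and Tpm2 passed, in a background of 7.55%. Tpm4 and Cnn1 kept their direction in all 23 settings tried, between 0.52 and 0.66 for Tpm4 and between 0.40 and 0.58 for Cnn1.

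**Figure D5:**
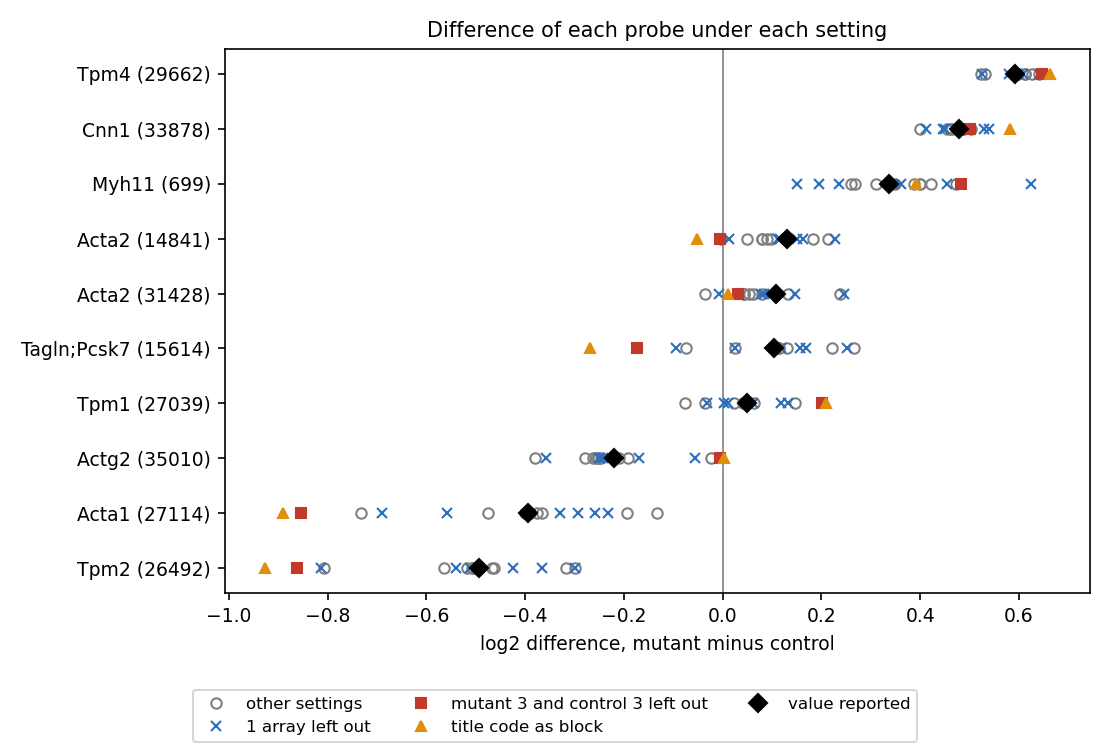
Log2 difference of each probe (Actc1 left out) as reported (black diamonds) and under each of the 23 other settings: 1 array left out (blue crosses), mutant 3 and control 3 left out (red squares), the title code as a block (orange triangles) and the rest (grey circles). Tpm4 and Cnn1 stay together to the right of 0, and Acta1 and Tpm2 move furthest left with the title code as a block, next without mutant 3 and control 3.

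Other genes of the thin filament and of smooth muscle were taken from lists, using the brightest probe of a gene. Over all 15012 genes so measured, 10.2% had an unadjusted p under 0.05 and 52.4% were above 0, with a median of 0.01. Of 15 measured actin, tropomyosin, capping and severing genes, 0 passed limma's test and 1 had an unadjusted p under 0.05. In 13 of 15 the difference was above 0 and the median was 0.09. Cap1 and Cap2, which encode cyclase-associated proteins that recycle actin monomers, had the smallest p, with 0.41 ± 0.14 and 0.54 ± 0.23 (log2, SE; limma adjusted p = 0.385 and 0.511), and on both all mutants lay above all controls. Tpm3, the remaining tropomyosin gene, gave -0.04 ± 0.12, and the cytoplasmic gamma-actin Actg1 gave 0.15 ± 0.13, with its spot saturated on 4 arrays.

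Of 25 measured further smooth muscle genes, 0 passed, 6 had an unadjusted p under 0.05 (1 higher, 5 lower) and 13 were above 0, with a median of 0.01. Csrp2, a LIM protein of smooth muscle that assists SRF, read 11.81, 12.01 and 11.71 in mutants and 10.78, 10.71 and 11.19 in the controls, a difference of 0.95 ± 0.16 (log2, SE; limma adjusted p = 0.138). Fhl1, a LIM-only protein of striated muscle, read 9.54, 9.33 and 9.35 against 10.20, 10.27 and 10.68, a difference of -0.97 ± 0.15 (limma adjusted p = 0.129). The groups did not overlap on either gene. Of the relatives of Cnn1, Cnn2 gave 0.20 ± 0.18 and Cnn3 -0.28 ± 0.09. The relatives of Tagln gave -0.07 ± 0.15 (Tagln2) and -0.74 ± 0.23 (Tagln3). None of these passed, and the relatives were named by family after their values had been seen.

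Of 17 measured genes of SRF, its partners and the signals upstream of them, 0 passed and 3 had an unadjusted p under 0.05 (1 higher, 2 lower), with a median of 0.02 and 11 above 0. Klf5, a zinc finger factor of dedifferentiated smooth muscle, gave -0.32 ± 0.11 and the growth factor Tgfb2 0.22 ± 0.08 (log2, SE; limma adjusted p = 0.416 and 0.45). Srf itself gave 0.05 ± 0.30. Its cofactor myocardin, Myocd, gave 0.65 ± 0.35, with mutant 1 at 9.48 and the other arrays between 7.67 and 8.54. These last 2 were named for their role, after their values had been seen.

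Marker lists of several cell types were read too. Being above background does not single out a tissue, since 74.1% to 78.2% of all spots on each array were. Of 14 measured cardiomyocyte markers, 13 were above background on all 6 arrays and Myh6 on 4. Their summed signal on the linear scale was 161658 to 199375 in mutants and 137505 to 208296 in the controls, but Myl7 was saturated on 6 arrays, Tnni1 on 3, Myl4 on 2 and Myl2 on 1, which caps these sums. Of the same markers, 0 passed limma's test, 3 had an unadjusted p under 0.05 and 8 were above 0. The marker lists whose summed signal did not overlap were those of cushion mesenchyme, skeletal muscle and endothelium, with 10, 11 and 10 genes measured. Their mutant sums were 12108 to 13377, 11566 to 14390 and 8499 to 9583. Their control sums were 10391 to 11120, 7669 to 10689 and 9718 to 10209. Of their members 0 passed, 3, 3 and 2 had an unadjusted p under 0.05, and 5 of 10, 7 of 11 and 1 of 10 were above 0, with medians of -0.10, 0.04 and -0.14. The cushion sum and its median thus differ in sign: Vcan and Fbln1 gave 0.61 and 0.71, Postn and Col1a1 -0.56 and -0.60. A linear sum mostly follows its brightest genes. Of single probes 15.1% did not overlap, and no such share is given for sums. In the skeletal muscle list Tnnt3, Tnni2 and Mylpf gave 2.63, 0.80 and 0.35, and Ckm gave -0.74. Myod1, Myf5 and Myh3 gave -0.02, 0.04 and -0.05. Those were dim, at 6.19 to 7.21, and the background correction pulls differences of dim probes towards 0. Of the skeletal muscle list, Myog, Myf6, Tnnc2 and Pax7 were above background on no array. Of the endothelial list Flt1 was above background on none and Cdh5 on 1. The sums of the epicardial (5922 to 8269 against 6266 to 12442) and neural crest lists (2743 to 3259 against 2940 to 3260) overlapped. The erythroid sums, 115686 to 123836 against 123226 to 129211, are capped, since Hbb-y, Hbb-bh1 and Hba-x were saturated on all 6 arrays. Of the 8 epicardial, 10 erythroid and 7 neural crest members measured, 0 passed and 1, 1 and 0 had an unadjusted p under 0.05. Above 0 were 2 of 8, 1 of 10 and 3 of 7, with medians of -0.14, -0.29 and -0.04. The part of these cell types in the values of Tpm4 and Cnn1 was not tested.

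Finally, the genes whose level followed those of Cnn1 and Acta2 most closely over the 6 arrays were found by the root mean square difference between profiles centred on their means. For Cnn1 they were Aif1l, Cxxc5 and Dap, at 0.04, 0.05 and 0.05 log2 units, against a spread of 0.26 for Cnn1 itself. Aif1l, which encodes a calcium-binding relative of an actin-bundling protein, read 8.42, 8.62 and 8.60 in mutants and 7.88, 8.01 and 8.08 in the controls. The differences of Aif1l, Cxxc5 and Dap, 0.56, 0.47 and 0.46, follow from choosing matches to Cnn1 on these same arrays. How close a match arises by chance among all probes was not tested. For the brighter Acta2 probe they were Abraxas1, Uba3 and Bub3, at 0.03, 0.03 and 0.04 against a spread of 0.16. Tagln was left out of this comparison because its probe is shared.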

How the data were processed

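Gene expression was measured on 6 single-colour CodeLink arrays. The deposited files give intensity values per spot: spot mean, local background median, their difference and the authors' normalized intensity, with a quality flag, per the file headers. Checked on the values, the authors' normalized intensity is the subtracted intensity divided by 1 number per array (66.1 to 82.8). The deposited value table holds the same signal on spots flagged good, on a linear scale, uncentred, with column medians of 1.83 to 2.06. Masked spots were set to missing. Flag letters are not defined in the files: L was read as near background and S as saturated.

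In limma 3.58.1 (R 4.3.3), normexp with an offset of 50 corrected the spot means, which were then log2-transformed and quantile-normalized over the 21880 spots that the platform annotation lists with a gene. Probes above background on at least 3 arrays in whichever group (17727) went into one unblocked lmFit and eBayes fit, with two-sided p-values adjusted by Benjamini-Hochberg over every probe in it. All 11 probes of the 10 genes passed that filter. The offset pulls differences of dim probes towards 0. The code was tested on simulated data. The number of arrays limits the precision.

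The genes, the lists and the naming rule were chosen with earlier results of these data known. Named are all probes of the 10 genes, Dicer1, the 2 genes of smallest p in each list of related genes, and the 3 nearest profiles of Cnn1 and Acta2, clone names left out. Outside that rule, and after their values were seen, relatives of the 10 genes (Tpm3, Actg1, Cnn2, Cnn3, Tagln2, Tagln3), Pcsk7, Srf, Myocd and single members of the marker lists were named.

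The alternatives were the subtracted intensity, another offset (16), the authors' normalized intensity, the value table, median scaling, cyclic loess, no filter, a stricter filter, saturated spots as missing, eBayes with trend, array weights, both blocks, and leaving out arrays. Quantile normalization over all spots was added after seeing the data. The array titles carry numbers that mutant and control of the same replicate share. Deviations from the group means correlated across probes at 0.01, -0.48 and -0.38 within these pairs, so the numbers were not taken to pair the samples.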

Additional observations from a re-analysis of the deposited data

How the results depend on the processing

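Of 251 values of the probes under the 23 alternatives, 221 kept their direction and their side of the threshold, 13 gained a call and 17 changed sign, none of these with a call. The cause of these shifts was not tested. The number of probes passing, 9, was 5 with the subtracted intensity, 4 with the authors' normalized intensity, 5 with the value table, 0 with the replicate block by title number, 1338 with the title code as a block, and 0 to 320 with 1 array left out; without the mutant and control of replicate 1, 2 or 3 it was 0, 0 and 3921. With array weights it was 7295, but those weights did not converge (control 2 had 151, the others 0.164 to 1.12). Of the 11 probes, the number passing (0 as reported) was 2 with the title code as a block, 5 with array weights, 0 to 1 with 1 array left out and 5 without pair 3. The number with an unadjusted p under 0.05 (2 as reported) was 5, 5, 2 to 4 and 5 in the same settings, and 1 without pair 2. The number without overlap (2 as reported) was 2 to 4 with 1 array left out, 4 without pair 2 and 7 without pair 3.

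Signs turned for Actc1, saturated, with the authors' intensity (0.0204), median scaling (0.0386) and the title code (0.0408). They turned for Acta2 14841 with cyclic loess (-0.00265), the title code (-0.0526) and without pair 3 (-0.00566), and for Acta2 31428 with cyclic loess (-0.0352). For Tpm1 they turned with cyclic loess (-0.0367) and without pair 1 (-0.0772), for Actg2 with the title code (0.00301), and for the shared probe of Tagln and Pcsk7 with array weights (-0.0733), the title code (-0.268) and without pair 3 (-0.173). With 1 array left out, Actc1 ranged from -0.0788 to 0.00929, Acta2 31428 from -0.00838 to 0.247, Tpm1 from -0.0316 to 0.133 and the shared probe from -0.0949 to 0.251. The replicate block changed no other call: Tpm4 and Cnn1 had an unadjusted p under 0.05 with it as without it. Signal over background was lowest for Myh11 (3.81 to 8.86 times) and Actg2 (6.44 to 12 times).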
